A study of Mus musculus with 16 samples.

Results

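Gas5, Snhg1, Snhg3, Snhg5, Snhg6, Snhg8, Snhg11 and Snhg12 are small nucleolar RNA (snoRNA) host genes, and each was taken from the deposited mouse gene annotation by its symbol, from models of any source. All 8 symbols were found, among 50578 genes in the whole annotation. The study measured bone-marrow-derived macrophages, grown for 7 days with the growth factor M-CSF at 50 ng/ml, with or without lipopolysaccharide (LPS), a bacterial cell-wall lipid and sugar molecule that activates macrophages. Its 16 samples comprised RNA-seq of wild-type C57BL/6 cells (3 untreated, 3 LPS), ribosome profiling of wild-type C57BL/6 cells (2 untreated, 2 LPS, with CHX in the sample titles) and RiboTag RNA-seq of LysM-Cre x RiboTag cells (2 untreated, 2 at 6 h and 2 at 24 h of LPS). RiboTag recovers RNA bound to ribosomes through an HA-tagged ribosomal protein, and LysM-Cre limits the tag to myeloid cells and their descendants. For the RNA-seq and ribosome profiling samples the labels state LPS without a duration for each sample. Values per library, and with them the depth, the response to LPS and the macrophage markers, were not analysed here. The values that follow are positions, lengths and counts of gene models in build mm10, which have no replicates.

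snoRNAs direct chemical modification of ribosomal and spliceosomal RNA. Box C/D snoRNAs guide methylation of the ribose, and box H/ACA snoRNAs guide conversion of uridine to pseudouridine. In mammals most of them are cut out of introns after splicing of a host transcript, so the RNA that a host gene delivers can lie in its introns while its spliced exons form a separate long non-coding RNA. Spliced host RNAs such as Gas5 are known to meet ribosomes and to be degraded by nonsense-mediated decay, and many hosts share with ribosomal protein genes a 5′ terminal oligopyrimidine start, a C followed by a run of pyrimidines.

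The start regions of the hosts are shown first because the members share features there that the choice by symbol did not use. The sequences run 5′ to 3′ on the gene's strand, from 45 bases before to 25 bases from the RefSeq start onward, in build GRCm38.p6. Capitals mark TATA where it begins 40 to 20 bases before the start, and a C followed by at least 4 pyrimidines (C or T) where it begins at most 10 bases from the start. RefSeq gave 8 windows for 7 of the 8 members. Gas5 had 2 windows, and the one at the start of Gas5-002 is shown. Snhg6 had no entry in the table. The first exon of Snhg1, of 20 bases, lies wholly within the stretch shown.
Gas5, chr1:161035121-161035190, plus strand: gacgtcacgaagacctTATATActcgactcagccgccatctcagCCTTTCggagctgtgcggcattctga
Snhg1, chr19:8723442-8723511, plus strand: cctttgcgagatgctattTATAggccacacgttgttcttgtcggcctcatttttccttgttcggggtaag
Snhg5, chr9:88522873-88522942, minus strand: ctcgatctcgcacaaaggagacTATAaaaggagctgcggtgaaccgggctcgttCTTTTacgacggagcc
Snhg8, chr3:123508312-123508381, minus strand: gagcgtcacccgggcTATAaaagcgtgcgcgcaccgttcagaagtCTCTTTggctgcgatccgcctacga
Snhg12, chr4:132308633-132308702, plus strand: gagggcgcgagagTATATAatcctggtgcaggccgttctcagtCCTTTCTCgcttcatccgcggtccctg
Snhg3, chr4:132353662-132353731, minus strand: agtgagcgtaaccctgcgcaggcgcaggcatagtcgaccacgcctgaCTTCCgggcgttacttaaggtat
Snhg11, chr2:158375668-158375737, plus strand: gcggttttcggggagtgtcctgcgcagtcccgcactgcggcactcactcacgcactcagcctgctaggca

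TATA, the core letters of the TATA box at which the general transcription machinery assembles, began 40 to 20 bases before the start in 5 of the 8 windows, 1 for each of Gas5, Snhg1, Snhg5, Snhg8 and Snhg12. Over all 32851 RefSeq windows of the same length the share was 5.81%. The first letter stood at -29 and -27 in Gas5, where 2 copies overlap, at -27 in Snhg1, -23 in Snhg5, -30 in Snhg8, and -32 and -30 in Snhg12. Snhg3, Snhg11 and the other Gas5 window had no match in that interval. Snhg3 had TATA at position 23 after the start, counting the start as 1, and the deposited transcript Snhg3-002 began 31 bases after the first letter of that motif. Of the 59 deposited member transcripts, 21, from 6 members with Snhg3 among them, began 20 to 40 bases after a TATA. Gas5 contributed the most of them. This count also took TATA outside the interval above, as in Snhg3, and has no share over all deposited transcripts beside it. Others began more than 40 bases after the motif, among them Gas5-005 and Snhg12-005, or upstream of it. In Snhg5-002 and Snhg8-001, the transcripts with most exons, TATA lay inside the first exon, of 79 and 293 bases. Gas5-007, Gas5-008, Gas5-009 and Gas5-010 also began upstream of the TATA of Gas5. Only the gene's own strand was searched. The motif and the interval were chosen after these sequences had been seen, and a match is a description of letters, not a measured binding site.

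**Figure D1:**
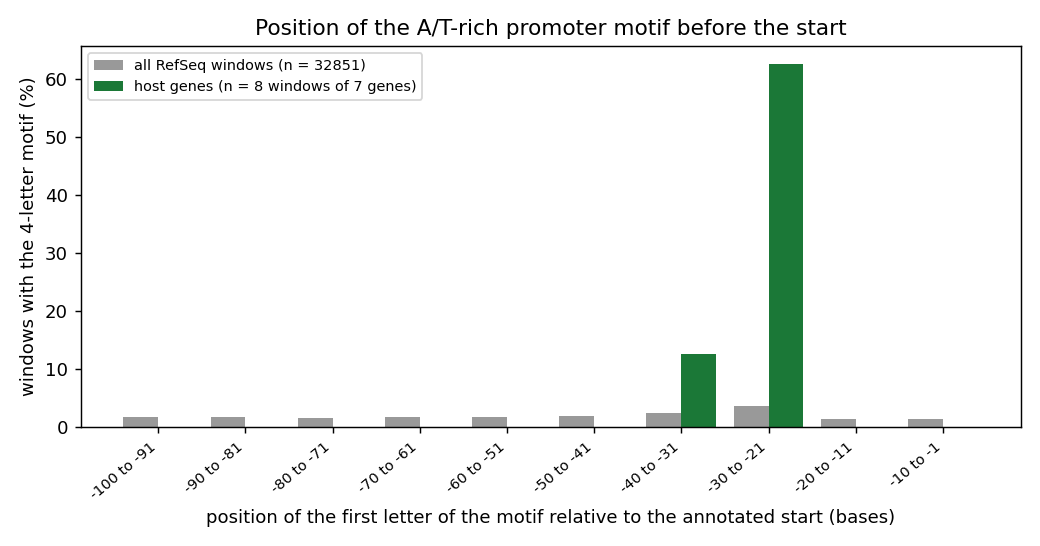
Share of promoter windows in which the 4-letter motif begins in each 10-base bin before the annotated start, for all 32851 RefSeq windows (grey) and for the 8 windows of the host genes (green). Of the host windows 62.5% have a match between -30 and -21, against 3.61% of all windows.

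The pyrimidine start was found at the exact start in fewer members than TATA before it. A C followed by at least 4 pyrimidines began exactly at the RefSeq start in 2 of 8 windows, those of Gas5 and Snhg8, against 2.51% of all windows. Within 10 bases of the start it was found in 5 of 8 windows, those of Gas5, Snhg3, Snhg5, Snhg8 and Snhg12, against 29.7% of all. Among 79 windows of ribosomal protein genes (symbols that begin with Rpl or Rps) the share was 17.7% at the exact start and 54.4% within 10 bases. In the interval above, 8.86% of them had TATA. The 15 windows of listed coding snoRNA hosts, most of them genes of ribosomal proteins and translation factors, had TATA in 6.67%. They had the pyrimidine run at the exact start in 6.67% and within 10 bases in 33.3%. In the 11 windows of other listed non-coding hosts, the shares were 9.09% for TATA, 9.09% for the run at the exact start and 45.5% within 10 bases. The median GC content was 61.0% over the member windows and 52.7% over all windows. It was likewise 61.7% over the listed coding hosts, 61.0% over the other listed non-coding hosts and 58.0% over the ribosomal protein genes, so it was not particular to the members.

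Each of the 8 members held at least 1 small RNA gene within its span on the same strand. Together they held 31 models at 29 separate places, all of them annotated as snoRNA genes. The annotation had 6497 Ensembl long non-coding genes, of which 182 held a small RNA gene of any kind, or 2.8% (Wilson 95% interval 2.43% to 3.23%). That background shows how rare hosting was, but hosting is what the names of these genes record, so the members' count is no independent result. Of the members, 6 are among those 6497 genes, here and in the later comparisons. Snhg1, which has no biotype, and Snhg11, annotated as protein-coding, are not. By symbol, 9 models were box C/D (Snord), 7 box H/ACA (Snora) and 15 carried other symbols, 14 of the Gm series and Mir5117. The unnamed models were short: 13 of 15 had at most 100 bases, as had 111 of the 122 box C/D models of the annotation and none of its 57 box H/ACA models. Over all 1409 snoRNA models with other symbols, 26.8% were that short.

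Of 357 genes on the primary chromosomes that held a snoRNA, 277 held 1, and 5 held 8 or more. Snhg14, a large imprinted host, led with 208, followed by LOC100862301 with 16 and the imprinted Rian with 13. Gas5 with 9 and Snhg1 with 8 came next. They differed from the 3 larger arrays in density. Snhg1 had 28.2 snoRNA places per 10 kb of its span, Gas5 21.9 and Snhg12 17.0, whereas Snhg14 had 3.12 and Rian 2.25. Snhg8 had 11.7, Snhg5 10.6, Snhg6 4.63, Snhg3 3.53 and Snhg11 1.90. The coding genes with most were Eif4a2, Nop56 and Rpl4, which held 5 places each, and 1.24% of 22159 protein-coding genes held any.

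**Figure D2:**
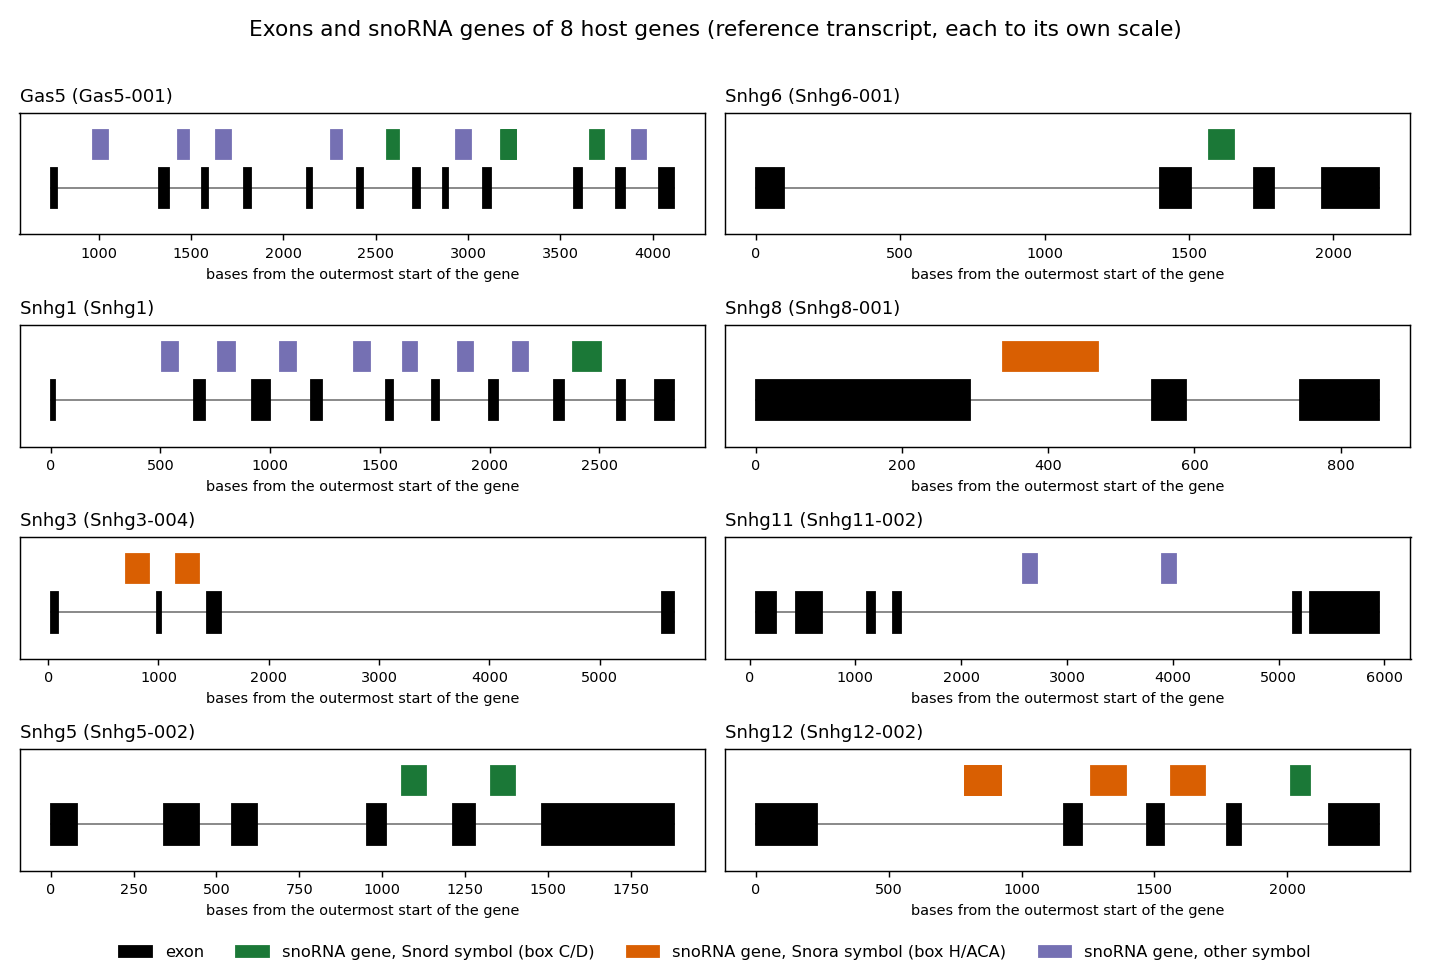
Exons (black) and snoRNA genes (coloured by symbol) of the 8 host genes along the transcript with most exons, in bases from the outermost start of the gene, each gene at its own scale. Gas5 and Snhg1 alternate short exons with single snoRNA genes, and Snhg11 has both of its snoRNA genes in 1 long intron.

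Gas5, named for RNA that accumulates in growth-arrested cells and known as a decoy of the glucocorticoid receptor, spanned 4118 bases at chr1:161034422-161038539 on the plus strand. Gas5-001, the transcript with most exons, had 12 exons of 28 to 81 bases, which sum to 502 bases, or 14.9% of the stretch from its first exon to its last. Of its 11 introns, 9 held a snoRNA gene, and introns 4 and 7 held none. In order from the start, introns 1, 2, 3 and 5 held the unnamed Gm26224, Gm22489, Gm22357 and Gm23212. Intron 6 held Snord78, intron 8 Mir5117, intron 9 Snord80, intron 10 Snord47 and intron 11 Gm25789. A model named SNORD77 lay inside Snord80, and its gene ID is named Snord80 in the symbol table, so both were counted as 1 place. Mir5117 bears a microRNA symbol but was annotated as a snoRNA gene of 84 bases, and RefSeq lists the name as a synonym of Gas5. The snoRNA models made up 23.3% of the intron bases.

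Snhg1 spanned 2840 bases at chr19:8723487-8726326 on the plus strand and came from RefSeq lines, without a biotype. Its 1 transcript had 10 exons of 20 to 88 bases, 476 bases in all or 16.8% of the span. Of 9 introns, 8 held 1 snoRNA gene each, and the last, of 136 bases, held none. In order they were Gm25855, Gm25894, Gm24452, Gm24453, Gm22744, Gm22680, Gm23246 and Snord22. The first 7 had 65 to 76 bases. Snord22, at 126 bases, was the longest model with a Snord symbol among the members. Small RNA made up 26.3% of the intron bases, close to the value of Gas5. Among the 6497 Ensembl long non-coding genes, which do not include Snhg1, 61 (0.939%) had a transcript with 10 or more exons.

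Snhg5 and Snhg6 held only box C/D genes. Snhg5, at chr9:88521050-88522929 on the minus strand, held Snord50b in intron 4 and Snord50a in intron 5 of Snhg5-002. The 2 arrangements were the same to the base. Each intron had 201 bases, each snoRNA 72, and each lay 49 bases after the upstream exon and 80 before the next. The other 3 introns held none. Snhg6, at chr1:9941959-9944118 on the minus strand, held Snord87, of 87 bases, in an intron of 218 bases.

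Snhg3 and Snhg8 held only box H/ACA genes by symbol, and Snhg12 held both classes. Snhg3, at chr4:132348014-132353686 on the minus strand, held Snora73a and Snora73b, also known as U17, which act in the processing of ribosomal RNA rather than as known modification guides. Both had 205 bases, the longest snoRNA models of the members. Snhg8, at chr3:123507552-123508404 on the minus strand, had the shortest span, 853 bases. Snora24 filled 130 of the 249 bases of its first intron, and small RNA made up 32.1% of its intron bases, the highest share of the 8. Snhg12, at chr4:132308678-132311024 on the plus strand, had a snoRNA gene in each of its 4 introns: Snora16a, Snora44, Snora61 and Snord99. A second model in intron 1, snopsi28S-3327, covered Snora16a with 1 base more and is named Snora16a in the symbol table.

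Snhg11 differed from the other members in its layout. It had the longest span, 10508 bases at chr2:158375638-158386145 on the plus strand, and was annotated as protein-coding, while RefSeq classed all 8 members as long non-coding. Its coding transcript Snhg11-001 had 5864 bases and a coding sequence of 261 bases, or 87 codons. Snhg11-002 and Snhg11-005 carried coding sequences of 201 and 213 bases and the label of nonsense-mediated decay targets. Both snoRNA genes, Gm25187 and Gm25129, had 133 bases and lay in the same intron of 3698 bases. It was the 1 intron of 28 with a snoRNA gene that held 2 places, and the other 27 held 1.

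All 31 models lay wholly within an intron of the host transcript with most exons. That count depends on the transcript chosen, and with introns of the longest transcript it was 22. The transcripts with most exons had 42 introns in all, 28 with a snoRNA gene and 14 without. Introns with one had a median length of 240 bases (175 to 3698), and introns without one 180.5 (87 to 4001). The ranges overlap, and no intron shorter than 175 bases held a snoRNA gene.

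The distance from the end of the snoRNA gene to the next exon had a median of 76 bases over the 31 models, with quartiles of 71 and 101 and a range of 65 to 2416. For 23 of 31 models, or 74.2%, it fell between 60 and 90 bases, and these 23 lay between 65 and 81. The distance to the upstream exon had a median of 60 bases over all 31 models, with quartiles of 45 and 166 and a range of 24 to 2461. Over 451 models in the introns of other hosts, the median distance to the next exon was 817 bases (quartiles 173.5 and 3723), and 15.5% fell between 60 and 90. The window of 60 to 90 bases was chosen after these distances had been seen. Introns of other hosts were also longer, with a median of 1847 bases against 247 for the members, each model counted once.

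**Figure D3:**
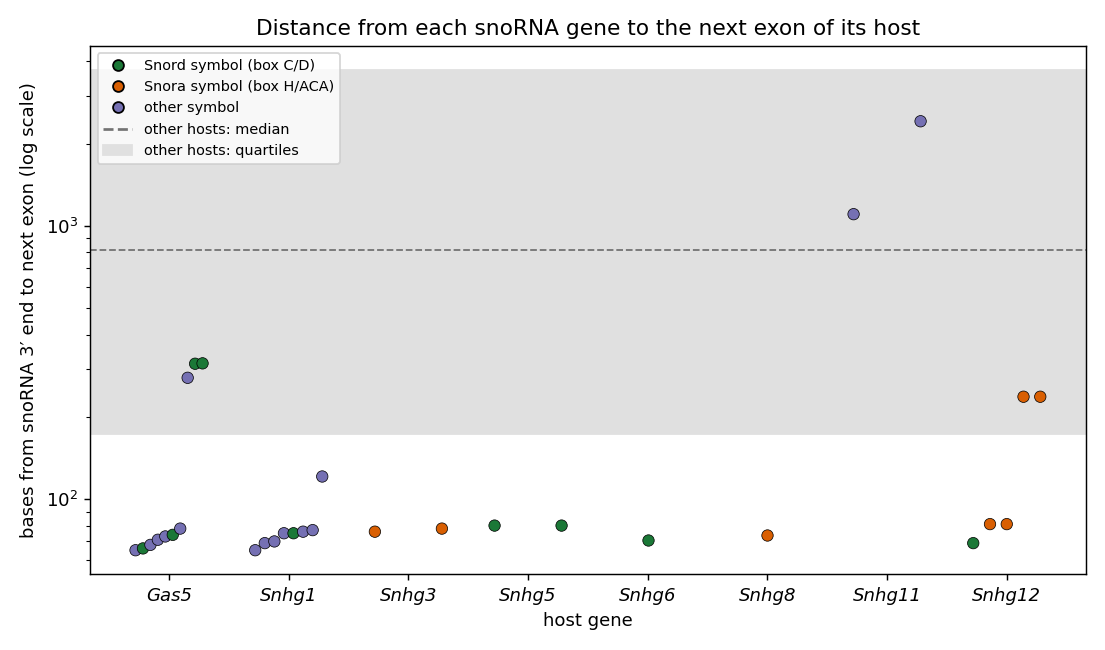
Distance from the snoRNA gene to the next exon of its host, in bases on a log axis, with 1 point for each of the 31 models. The dashed line and the grey band give the median of 817 bases and the quartiles over 451 models in other hosts. Points of 7 hosts gather between 65 and 81 bases, and both points of Snhg11 lie above 1000.

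Within the members the classes of snoRNA had similar medians. The distance was 75 bases for 9 box C/D models, 81 for 7 box H/ACA models and 75 for 15 unnamed models, with 7, 5 and 11 of them between 60 and 90 bases. In other hosts the classes lay further apart: 93.5 bases for 76 box C/D models, 198 for 34 box H/ACA models and 1591 for 341 unnamed models, with 42.1%, 17.6% and 9.38% between 60 and 90. All 31 member models carry the source ensembl, which holds Ensembl's automatic predictions, and whether the snoRNAs are expressed was not analysed here. Matched by snoRNA length alone, 17 of 21 member models of at most 100 bases (81.0%) fell in the window against 29.1% of 175 in other hosts. The introns of these short models still differed in length, with medians of 218 and 744 bases. Among longer models, 6 of 10 fell in the window against 6.88% of 276. In the 20 listed coding hosts, well-known carriers of snoRNAs, 47 models had a median of 87 bases and 51.1% in the window. Of their 27 models of at most 100 bases, 59.3% fell in the window, with a median intron of 236 bases. Other non-coding hosts lay further from the members. The 15 models of those listed had a median of 239 bases and 6.67% in the window. Of these, the 9 of at most 100 bases were all 79 bases long, with the same median of 239. The imprinted array Snhg14 had 9 models in introns of its transcript with most exons. The median of the listed hosts may therefore be that of 1 host. Over all other long non-coding hosts, 58 models had a median of 410 bases and 10.3% in the window. Models in 1 host share its exons and are not independent, and no test was made.

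The 8 models outside the window were in 4 hosts. In Gas5 they were Gm26224 in intron 1, at 278 bases, and Snord80 with the nested SNORD77 in intron 9, at 313 and 314 bases. These are the 2 longest introns of Gas5-001, with 557 and 447 bases. Gm23246 of Snhg1 stood at 121 bases. Snora16a and its second model in Snhg12 lay 237 bases from the next exon, in the longest intron of that gene (930 bases). In Snhg11, Gm25187 and Gm25129 lay 2416 and 1104 bases away. Long introns did not always go with long distances. Gm25855 sat 76 bases from the next exon in an intron of 634 bases in Snhg1, and Snora73a 76 bases in an intron of 898 bases in Snhg3, with 486 and 617 bases on the upstream side.

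**Figure D4:**
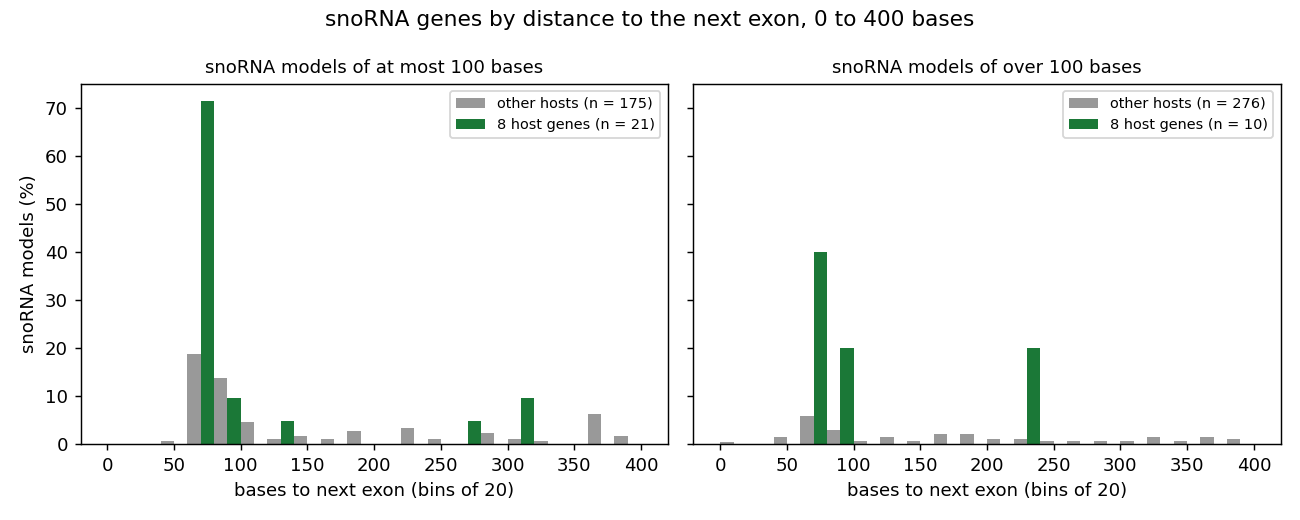
Share of snoRNA models by distance to the next exon in bins of 20 bases up to 400, for models of at most 100 bases (left) and longer ones (right), in the 8 host genes (green) and in other hosts (grey). Shares are of all models of a set, including those beyond 400 bases. In both panels the tallest green bar is that of 60 to 80 bases.

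The members had many transcripts for non-coding genes. The median was 5 transcripts, against 1 over all long non-coding genes, of which 2.52% had 5 or more. Gas5 had 25, and it was the 1 long non-coding gene of 6497 with that many. Its transcripts had 20 distinct starts spread over 3359 bases. The median of the longest spliced transcript was 874.5 bases over the members (476 to 5864) and 968 over all long non-coding genes, whose quartiles were 581 and 1933.

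Of the 59 transcripts of the members, 26 were labelled retained intron and 24 lincRNA. The others were 5 processed transcripts and 2 nonsense-mediated decay targets, with 1 coding transcript and 1 of no given kind. A whole snoRNA gene lay in an exon in 24 of the 59, of which 20 were retained-intron transcripts. That label already implies an exon over intron sequence, so the overlap follows in part from the label. The remaining 4 were lincRNA transcripts of Snhg12. Gas5 contributed 16, and 1 of them, Gas5-003, had 6 snoRNA models in its exons and a spliced length of 2556 bases. In Gas5, Snord78 was exonic in 6 of 25 transcripts, Mir5117 in 5 and Gm22357 in 4. In the other members, Snord50a and Snord50b were exonic in 1 of 8 Snhg5 transcripts each, Snora24 in 1 of 3 of Snhg8, Gm25187 in 1 of 5 of Snhg11, and Snora61 in 2 of 7 of Snhg12. Snora44 and Snord99 were exonic in 1 of 7 each. No snoRNA gene of Snhg1, Snhg3 or Snhg6 was wholly exonic, although 159 bases of Snora73a lay in an exon of 1 Snhg3 transcript. Reads over such a stretch can belong to the snoRNA or to the unspliced host, and the annotation alone does not separate them.

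**Figure D5:**
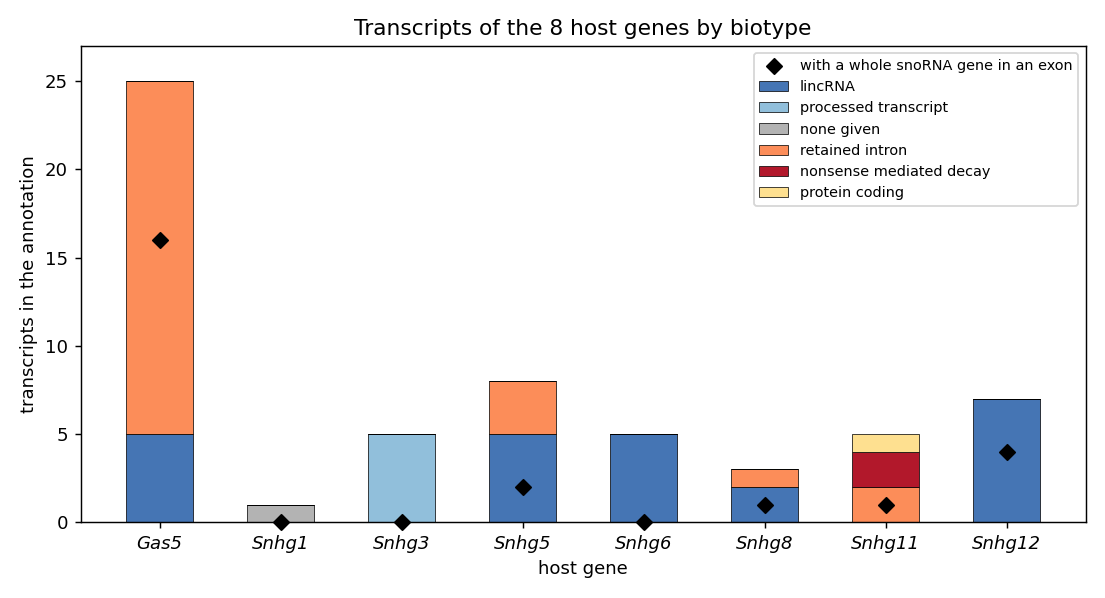
Number of annotated transcripts of each host gene, stacked by biotype, with a diamond at the number that has a whole snoRNA gene in an exon. Gas5 stands at 25 transcripts, 20 of them retained intron, with the diamond at 16.

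Coding neighbours at the start differed between the members. Snhg1 was the 1 member of 8 whose outermost start had a coding gene pointing away on the opposite strand within 1000 bases. Slc3a2, the heavy chain of an amino acid transporter, started 118 bases away in transcript Slc3a2-202. Of all long non-coding genes, 8.6% (Wilson 95% interval 7.95% to 9.31%) had such a partner, so 1 of 8 is near the background. Gas5 and Zbtb37, a zinc finger gene on the opposite strand, overlapped by 428 bases but shared 0 exon bases. The outermost Gas5 start lay inside Zbtb37, whereas Gas5-001 began 314 bases from the start of Zbtb37-001 and pointed away from it.

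Snhg3 was entangled with Rcc1, the exchange factor of the GTPase Ran, on the same strand. Rcc1-004 started 81 bases inside the outermost Snhg3 start and shared 135 exon bases with Snhg3-004, while Rcc1-003 shared 107. Snora73a and Snora73b therefore lay within both genes. On the opposite strand, exons of the lincRNA Gm17300 covered 175 of the 205 bases of Snora73a and all 205 of Snora73b. A further model, LOC100862259, also covered Snora73b. No other hosted snoRNA gene had an opposite-strand exon over it. The sources used here do not state whether reads were counted by strand. Without strand, reads of genes that overlap on opposite strands cannot be told apart. Snhg3 and Rcc1 lie on the same strand, so strand does not separate reads over the exon bases they share.

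For the remaining members the nearest coding start was 5293 to 61491 bases away. Snhg6 overlapped the tail of Mcmdc2 by 127 bases, all exonic in both, and the nearest coding start was that of Tcf24, 23814 bases away. Snhg8 ended 955 bases from the end of Prss12, whose start was 61491 bases away. Snhg12 lay 739 bases from Trnau1ap, with the nearest coding start, that of Rab42, at 5293 bases. Snhg12 and Snhg3 are neighbours on chromosome 4, on opposite strands with 36989 bases between them, where Trnau1ap and most of Rcc1 lie. The nearest coding start to Snhg5 was that of Zfp949, at 25091 bases, and to Snhg11 that of Ralgapb, at 34210. For Snhg11 the nearest other snoRNA host was Snhg17, 14058 bases away on the opposite strand.

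Genes of the snoRNA pathway were placed from lists by the same measure. Among the box C/D core proteins, which bind the snoRNA and carry the methylase fibrillarin (Fbl), 4 of 5 symbols were found, and Nop56 and Nop58 themselves held 5 and 4 snoRNA places. Of the 4 box H/ACA core genes, Dkc1, the pseudouridine synthase, held 1, and Nhp2, Nop10 and Gar1 none. None of the 11 assembly and processing genes, such as Naf1 and the debranching enzyme Dbr1, and none of the 8 nonsense-mediated decay genes, such as Upf1, held any. Of the 20 listed coding hosts 19 held at least 1, 48 places in all with the 2 that Rcc1 has in common with Snhg3, among them Rpl13a with 4 and Hspa8 with 3. Of 12 further non-coding hosts, 9 symbols were found and 8 held 218 places, 208 of them in Snhg14. Snhg7, which held none, was itself annotated as a snoRNA gene.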

How the data were processed

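The data analysed are 1 deposited gene annotation in GTF format with 1544831 lines, whose columns hold start and end positions counted from 1. It has 0 lines with a score and 0 columns of values per sample, so nothing was normalised and no group of samples was compared. Per the submitters' processing notes, the tool TopHat2 2.1.1 (an aligner) and the build mm10 were used, with no role stated. The sources used here do not say how the authors made the annotation.

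Members were matched by symbol. Introns came from the transcript with most exons, with ties broken by spliced length. A small RNA gene counted as hosted when its span lay within the member's span on the same strand. A divergent coding start counted within 1000 bases. All members, every hosted small RNA gene, overlapping coding genes and the nearest coding start were named, with list genes as examples. Members and lists were chosen with earlier results of these data known. Other named hosts and distances were chosen after their values were seen. Wilson 95% intervals cover counting error alone, as if the models were a sample.

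Promoter windows, 250 bases before to 50 after the start, and symbols came from RefSeq tables of GRCm38.p6. All 31 hosted gene IDs were found in the symbol table, and 30 models overlapped a RefSeq snoRNA. Python 3.11.15, pandas 2.3.3, numpy 2.4.6 and scipy 1.17.1 were used. The placement code was tested on simulated gene models. Alternatives changed strand, overlap, source, transcript, distance limit and length measure.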

Additional observations from a re-analysis of the deposited data

How the results depend on the processing

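Of 19 alternatives, 12 stayed within 1.5 times the stated count or median. The number of snoRNA models wholly in an intron fell from 31 to 13 when the intron had to be free of exons of every transcript, a stricter demand for genes with many retained-intron transcripts. With introns of the longest transcript that number was 22, within the 1.5 times limit. The number of members with a coding partner rose from 1 to 2 when the start of every transcript was used, which added Gas5. The median spliced length went from 874.5 bases to 582.5 as the median over transcripts and to 1386 with merged exons. The share of long non-coding genes holding a small RNA gene, 2.80%, became 4.65% on either strand, 0.770% with snoRNA and scaRNA genes only and 0.985% without automatic models, since other genes were counted. The median distance to the next exon ran from 75 to 78 bases over its alternatives, of which 1 model per place (76) and leaving out Gas5 (77) were added after the data were seen. No paired analysis was possible because the annotation holds no values per sample. Expression, splicing and translation of the hosts, and which snoRNA models are expressed, were not measured here.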
